A study of Mus musculus with 8 samples.

Results

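Thrombospondins, tenascins and periostin are secreted matricellular proteins, which sit in the extracellular matrix and modulate how cells attach to it and respond to growth factors. The 9 genes described here, Thbs1, Thbs2, Thbs3, Thbs4, Comp, Tnc, Tnn, Tnxb and Postn, were taken by symbol from 55276 symbols, and all 9 were found and passed the filter on low values in every comparison. They were followed in fibro-adipogenic progenitors (FAPs), the mesenchymal cells between muscle fibers that make much of the transient matrix after injury.

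The FAPs were GFP+ cells sorted from the tibialis anterior muscle at 3 or 7 days post injury (dpi), with 2 RNA-seq libraries for each genotype and day. Mice were 4 to 6 months old, and the muscle was injured by freeze-pierce. Control mice were Osr1 flox/+ CAGG Cre+ and Osr1cKO mice were Osr1 flox/flox CAGG Cre+, so that controls also carried Cre and had 1 floxed allele. Cre was tamoxifen-inducible and driven by a ubiquitous promoter, and GFP came from the recombined Osr1 allele. The driver therefore did not limit recombination to FAPs. Tamoxifen was given to the mice on the day of injury and on each of the next 2 days. At 3 dpi a library held the cells of 1 mouse, and at 7 dpi those of 4 mice pooled, so the spread at 3 dpi is between single mice and that at 7 dpi between pools. Day, pooling and time since tamoxifen cannot be told apart.

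Thrombospondins fall into a pair of subgroups. Thrombospondin-1 and -2 are trimers with anti-angiogenic repeats, and thrombospondin-1 can release latent TGF-beta. Thrombospondin-3, thrombospondin-4 and COMP (thrombospondin-5) are pentamers, and COMP and thrombospondin-4 are abundant in tendon and cartilage. Tenascin-C appears at sites of injury and remodelling, tenascin-W (Tnn) is found in bone and in stromal niches, and tenascin-X (Tnxb) is associated with collagen fibrils of settled connective tissue. Periostin, encoded by Postn, binds tenascin-C and collagens and is induced in activated fibroblasts.

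The sequences just before the transcript start are shown for Thbs4, Tnn and Thbs3, the members that were higher in Osr1cKO FAPs at 3 dpi, and for Postn, which rose between the days in both genotypes. Each gives the 250 bases before a RefSeq start, 5′ to 3′ on the gene's strand, in GRCm38.p6. The Thbs4 sequence is chr13:92794819-92795068 (minus strand), that of Tnn is chr1:160153576-160153825 (minus strand), that of Thbs3 is chr3:89214930-89215179 (plus strand), and that of Postn is chr3:54360857-54361106 (plus strand). Capitals mark 3 motifs read on either strand. The TATA box was searched as TATAAA. The MCAT element, which TEAD transcription factors bind, was searched as GGAATG. The SMAD element, bound by the effectors of TGF-beta signalling, was searched as CAGAC.
Thbs4: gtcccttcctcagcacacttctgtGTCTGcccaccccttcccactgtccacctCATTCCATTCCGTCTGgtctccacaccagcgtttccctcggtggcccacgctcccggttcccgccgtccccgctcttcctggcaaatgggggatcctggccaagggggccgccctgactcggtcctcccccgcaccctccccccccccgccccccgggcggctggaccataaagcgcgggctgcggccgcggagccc
Tnn: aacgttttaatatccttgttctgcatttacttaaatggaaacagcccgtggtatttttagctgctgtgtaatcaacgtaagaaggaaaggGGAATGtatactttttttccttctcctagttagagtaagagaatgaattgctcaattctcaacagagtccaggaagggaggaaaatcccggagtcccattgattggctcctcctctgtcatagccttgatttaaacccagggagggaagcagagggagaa
Thbs3: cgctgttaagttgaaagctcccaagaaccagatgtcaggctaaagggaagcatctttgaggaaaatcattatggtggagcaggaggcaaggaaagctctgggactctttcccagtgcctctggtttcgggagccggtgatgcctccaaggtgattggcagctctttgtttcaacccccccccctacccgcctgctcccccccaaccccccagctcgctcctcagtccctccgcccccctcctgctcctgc
Postn: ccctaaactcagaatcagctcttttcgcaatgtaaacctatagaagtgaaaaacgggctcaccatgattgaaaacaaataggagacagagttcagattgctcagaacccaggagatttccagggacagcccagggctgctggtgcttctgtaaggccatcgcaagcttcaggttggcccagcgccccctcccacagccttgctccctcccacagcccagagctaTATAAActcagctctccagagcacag

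GGAATG occurred in Thbs4 and Tnn and in no other of the 7 members in the RefSeq promoter table. It was in 12.6% of the 32817 windows of that table. They run from 250 bases before to 50 after each start, and only the 250 bases before the start were searched. The 2 matches in Thbs4 are on the opposite strand, share 1 base with each other and run directly into a CAGAC match, a motif found in 42.2% of windows. Thbs3 held none of the motifs, and the Postn sequence shown held TATAAA, found in 12.4% of windows. Another Postn window, starting at 54359017, held CAGAC and no TATAAA. A match describes letters in this window and says nothing of binding.

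The files gave TPM (transcripts per 1000000, a level per gene length), equivalent to between 36516528 and 51096358 fragments per library. Between 1462 fragments (Comp) and 611299 (Tnc) lay behind a value of the 8 members whose fragments could be recovered, so that counting error was between 2.62% and 0.128%. It covers counting only, not the spread between libraries. Osr1 itself had 105 and 91.0 TPM in the controls and 70.7 and 71.9 TPM in Osr1cKO libraries at 3 dpi, and 67.6 and 71.6 TPM against 64.4 and 60.8 TPM at 7 dpi. It was lower in each Osr1cKO library than in both controls of its day, by 0.45 (log2; unadjusted p = 0.0163) and 0.28 (unadjusted p = 0.0167), with adjusted p of 0.772 and 0.320 by limma. These values cover the whole gene, including exons that recombination leaves in place. FAP markers summed to between 20335 and 33543 TPM, most of it Col1a1, itself a matrix gene (12404 to 27784 TPM). Pdgfra was at 197 TPM or more in every library. Ly6a, which encodes the surface marker Sca-1, was at 5407 and 4232 TPM in the controls against 3058 and 2020 TPM in Osr1cKO at 3 dpi, and between 1357 and 1840 TPM at 7 dpi. Macrophage markers summed to between 10.7 and 57.9 TPM, with Ptprc at 0.216 TPM or less, and platelet markers, which bear on Thbs1, to between 5.96 and 11.4 TPM.

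In GRCm38 (GENCODE release 21), the pentameric thrombospondin genes lay on different chromosomes, Thbs3 on chromosome 3 (89215180 to 89226837, plus strand), Thbs4 on chromosome 13 (92751590 to 92794818, minus strand) and Comp on chromosome 8 (70373558 to 70382066, plus strand). Thbs1 lay on chromosome 2 (118111876 to 118127133, plus strand) and Thbs2 on chromosome 17 (14665500 to 14694235, minus strand). Tnc was on chromosome 4 (63959785 to 64047015, minus strand), Tnn on chromosome 1 (160085029 to 160153580, minus strand), Tnxb on chromosome 17 (34670535 to 34719815, plus strand) and Postn on chromosome 3 (54361109 to 54391037, plus strand). TPM summed all exons of a gene, so splice forms of Tnc or Postn were not told apart. Opposite-strand genes shared 208 exon bases with Thbs1 (Gm29233) and 176 with Tnc (8030451A03Rik), each under 10 TPM on average, and reads there are uncertain.

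Together the 9 genes made up between 0.643% and 1.48% of all TPM. Postn ranked between 11 and 134 among all genes in a library and Tnc between 11 and 186, whereas Comp lay between 917 and 3828. Thbs1, Thbs2 and Thbs4 carried most of the thrombospondin transcripts, and Tnc most of the tenascin transcripts in every library.

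**Figure D1:**
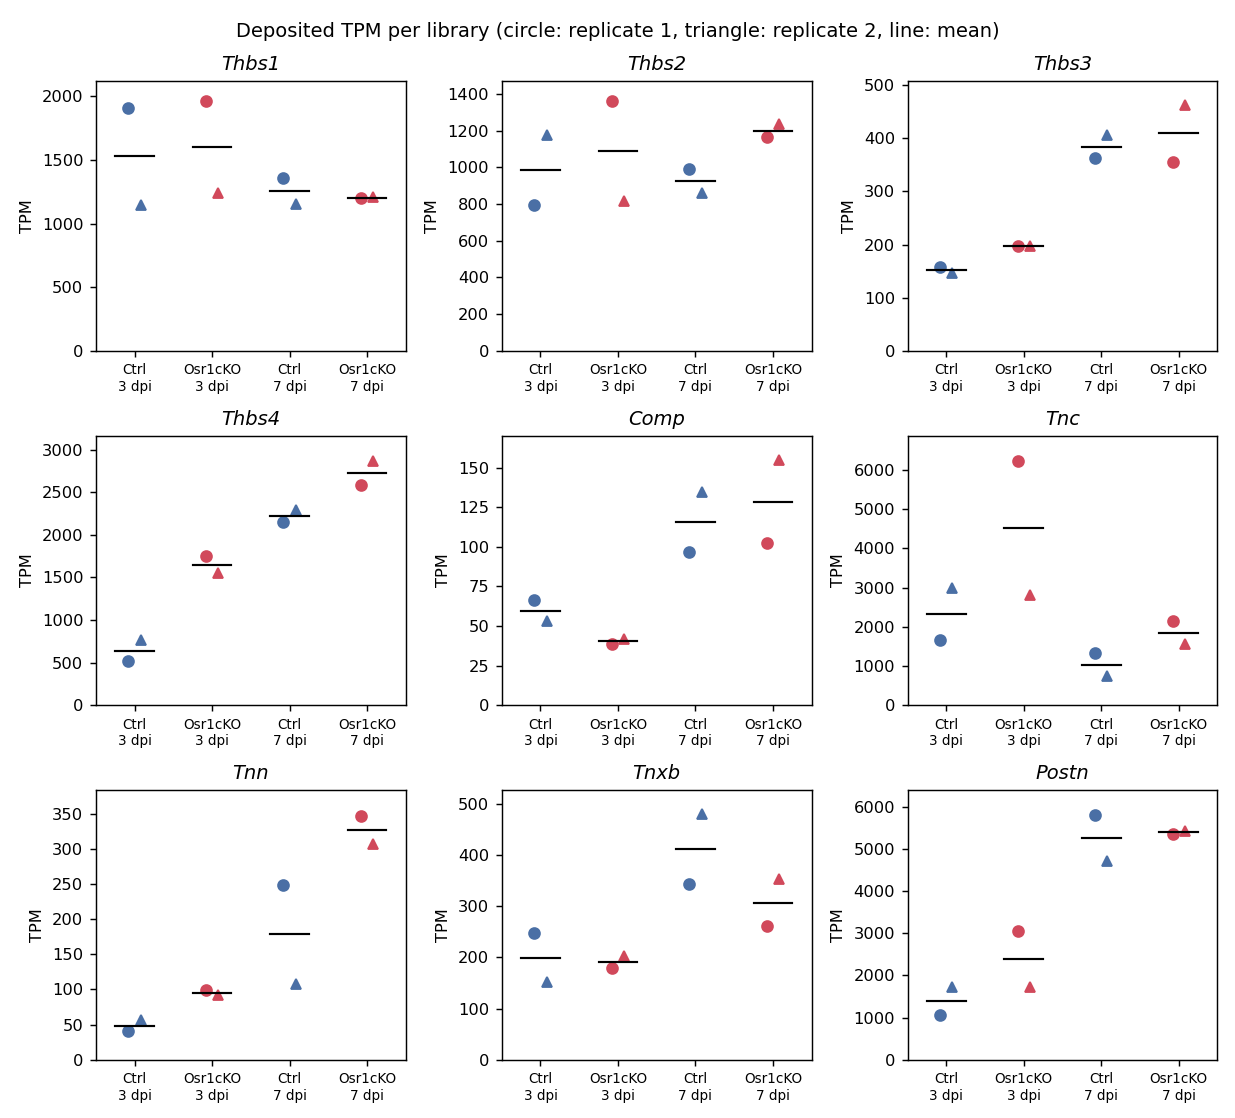
Deposited TPM (linear axis from 0) of the 9 genes in each of the 8 libraries by genotype and day, blue for control and red for Osr1cKO, with circles for replicate 1, triangles for replicate 2 and lines for the mean. Thbs4 ran from 517 and 766 TPM in control at 3 dpi to 2587 and 2868 TPM in Osr1cKO at 7 dpi with no overlap between groups, while the Tnc and Postn libraries of Osr1cKO at 3 dpi lie far apart.

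At 3 dpi, Osr1cKO FAPs had more Thbs4, Tnn and Thbs3 and less Comp than control FAPs (fold change over 1.2 and unadjusted p under 0.05). None of the 4 passed an adjusted p under 0.1. The criterion of fold change with unadjusted p is that of the study, which used DESeq2, and was applied here to limma. This criterion called 4 of 9 members, beside 6.26% of the 15699 genes tested. It called 3 of them as higher, beside 2.38% of all genes, and 1 as lower, beside 3.88%. No gene of the table reached an adjusted p under 0.1, and the smallest was 0.328. The study names Tnc and Postn among the matrix genes upregulated in Osr1cKO FAPs, and it displayed matrix genes from these libraries. The direction of the members is thus no independent evidence. The same 4 genes had groups that did not overlap, against 36.2% of all genes. The median log2 difference was 0.37 over the members and 0.0070 over all genes.

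Thbs4 was at 517 and 766 TPM in the controls and at 1747 and 1552 TPM in Osr1cKO libraries at 3 dpi. Both Osr1cKO libraries were above both controls, by 1.39 ± 0.25 on the log2 scale (SE; 2.61-fold; unadjusted p = 0.00276, adjusted p = 0.772, limma). Fold changes here and below are on scaled log2(TPM + 1). Fits without 1 library gave between 1.09 and 1.67. In bulk RNA, a change in the number of cells that express a gene and one in RNA per cell cannot be told apart.

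Tnn stood at 40.6 and 56.3 TPM in the controls and at 98.8 and 91.5 TPM in Osr1cKO libraries, again without overlap. The log2 difference was 0.98 ± 0.19 (SE; 1.97-fold; unadjusted p = 0.00393, adjusted p = 0.772, limma), and fits without 1 library gave between 0.73 and 1.21.

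Thbs3 differed less, with 158 and 147 TPM in the controls and 197 TPM in each Osr1cKO library. Its log2 difference was 0.37 ± 0.12 (SE; unadjusted p = 0.0267, adjusted p = 0.772, limma). The call was lost without control replicate 2 (unadjusted p = 0.0620) and without either Osr1cKO replicate (unadjusted p = 0.158 and 0.118). Exons of Thbs3 overlap Mtx1 on the opposite strand over 318 bases, 6.59% of its exon length, and whether counting used strand is not given in the sources used here.

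Comp moved against its close paralog Thbs4. It was at 66.2 and 53.1 TPM in the controls and at 38.9 and 42.0 TPM in Osr1cKO libraries, and fell by 0.54 on the log2 scale (SE 0.15; unadjusted p = 0.0155, adjusted p = 0.772, limma). Without Osr1cKO replicate 1 or 2 the value was -0.51 or -0.57, with unadjusted p = 0.0845 and 0.0614, and so no longer called. With Osr1cKO replicate 1 left out, 2 members (Thbs4 and Tnn) were called in place of 4.

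Tnc was at 1654 and 2993 TPM in the controls and at 6216 and 2819 TPM in Osr1cKO libraries. Postn had 1048 and 1717 TPM in the controls and 3050 and 1717 TPM in Osr1cKO libraries. In both genes Osr1cKO replicate 1 was the highest library of the day, and replicate 2 lay within the control range. The log2 differences were 0.91 ± 0.52 for Tnc (SE; unadjusted p = 0.139) and 0.77 ± 0.41 for Postn (SE; unadjusted p = 0.117), and neither passed. Without Osr1cKO replicate 2, Tnc reached 1.505 (unadjusted p = 0.0397) and Postn 1.21 (unadjusted p = 0.0433), and without replicate 1 they were 0.32 and 0.33. Postn also passed without control replicate 2, at 1.13 (unadjusted p = 0.0486).

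Thbs1 had 1906 and 1149 TPM in the controls and 1960 and 1237 TPM in Osr1cKO libraries, and its spread within each genotype exceeded the difference of 0.07 ± 0.37 (log2, SE). Thbs2 had 794 and 1177 TPM against 1360 and 817 TPM, and Tnxb 247 and 152 TPM against 179 and 203 TPM. Their log2 differences of 0.12 ± 0.35 and -0.03 ± 0.25 (SE) were likewise within the spread.

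**Figure D2:**
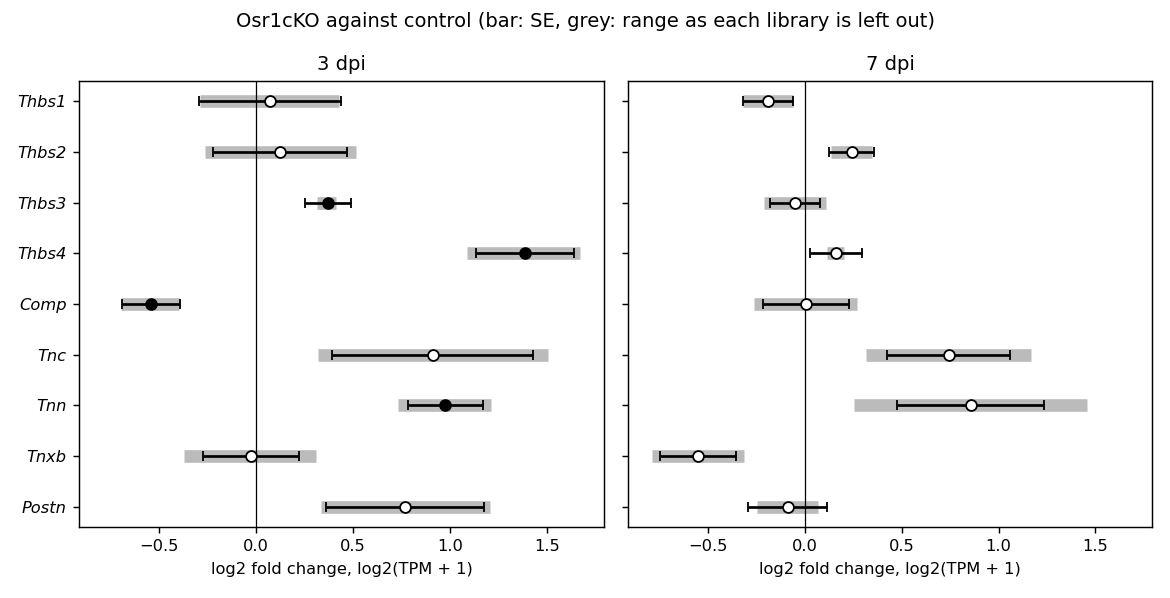
Log2 fold change of Osr1cKO against control FAPs at 3 dpi (left) and 7 dpi (right) for the 9 genes, with standard errors as bars and the range as each library is left out in grey. Filled circles mark the 4 calls at 3 dpi (Thbs3, Thbs4, Comp and Tnn), and there are none at 7 dpi.

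The makeup of the thrombospondin transcripts differed accordingly. Thbs4 was 15% and 23.3% of summed thrombospondin TPM in the controls and 32.9% and 40.4% in Osr1cKO libraries at 3 dpi. Thbs1 was 55.4% and 34.9% in control and 37.0% and 32.2% in Osr1cKO libraries, so the shares of Thbs1 overlapped between genotypes and those of Thbs4 did not. At 7 dpi Thbs4 was the largest component in all 4 libraries, with 43.4% and 47.3% in control and 47.8% and 48.4% in Osr1cKO. Comp stayed between 0.734% and 2.78%. These shares follow from the TPM above and were not tested.

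**Figure D3:**
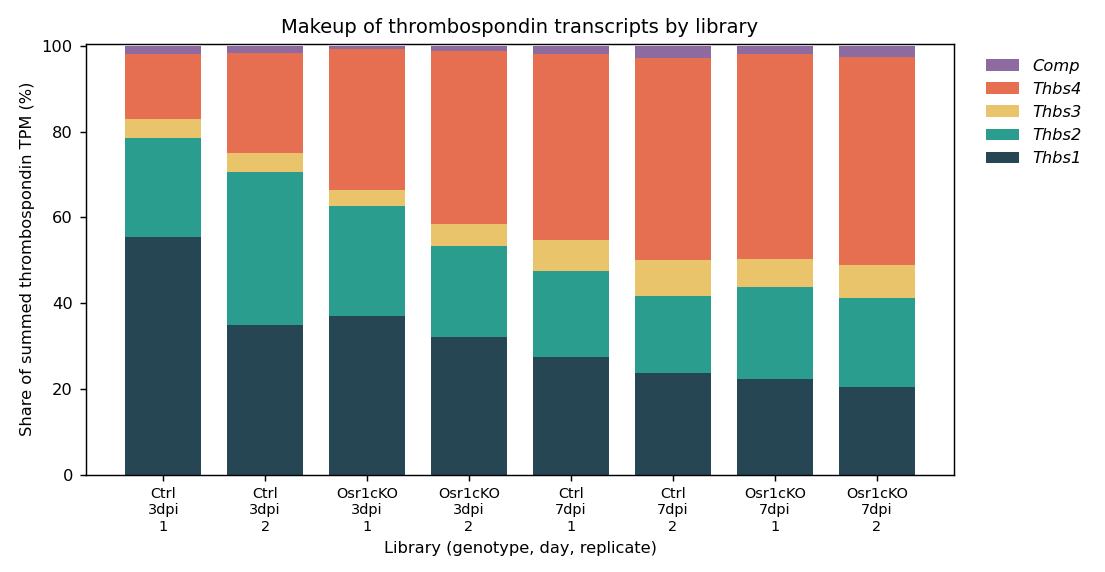
Share of summed thrombospondin TPM (percent, linear axis from 0) taken by each of the 5 thrombospondin genes in each library, named by genotype, day and replicate. The Thbs4 share is lowest in the control libraries at 3 dpi (15% and 23.3%) and highest in Osr1cKO at 7 dpi (47.8% and 48.4%).

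At 7 dpi, no member was called between the genotypes by the thresholds of the study for that day (fold change over 1.2 and adjusted p under 0.1). Applied here to limma, they called 11 of 16578 genes, 0.0664%. The study applied them to DESeq2 results and reported many more genes at this day, so 11 is not its count. By an unadjusted p under 0.05, 1 member passed, Tnxb, which was lower, beside 11.1% of all genes in either direction and 5.91% lower. That count depended on the scaling and model. On deposited TPM, Tnxb did not pass (unadjusted p = 0.0901), and Thbs2, Tnc and Tnn passed as higher (unadjusted p = 0.0165, 0.0277 and 0.0356). With limma-voom on recovered fragments, Tnxb passed as lower and Tnc and Tnn as higher (unadjusted p = 0.0127, 0.0228 and 0.0274). Fragments of Tnxb did not come out whole, so its limma-voom value rests on rounded numbers. Deposited TPM at 7 dpi were shifted toward Osr1cKO, with a median log2 difference over all genes of 0.11 before scaling and 0.0046 after it, and differences are given after scaling. Groups of scaled values did not overlap for 4 members that were higher (Thbs2, Thbs4, Tnc and Tnn, against 23.0% of all genes) and 2 that were lower (Thbs1 and Tnxb, against 22.8%). On deposited TPM, 42.8% of all genes were higher without overlap and 10.7% lower.

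Tnxb was at 342 and 480 TPM in the controls and at 260 and 353 TPM in Osr1cKO libraries at 7 dpi. Deposited values overlapped and scaled values did not, with a log2 difference of -0.55 ± 0.20 (SE; unadjusted p = 0.0336, adjusted p = 0.364, limma). Tnc was at 1331 and 747 TPM against 2148 and 1558 TPM, a difference of 0.74 ± 0.32 (SE; unadjusted p = 0.0627, adjusted p = 0.420, limma). Tnn was at 248 and 108 TPM against 346 and 307 TPM, a difference of 0.86 ± 0.38 (SE; unadjusted p = 0.0681, adjusted p = 0.428, limma).

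These values changed with single libraries of both genotypes. Without control replicate 1, which was the higher control for Tnc and Tnn, 3 members passed the adjusted threshold: Tnn (1.46, adjusted p = 0.00816), Tnc (1.17, adjusted p = 0.0815) and Tnxb (-0.79, adjusted p = 0.0899, limma), while 313 of 16257 genes did so. Without control replicate 2, the differences were 0.25 for Tnn and 0.32 for Tnc. The unadjusted pass of Tnxb was lost without control replicate 2 (-0.32, unadjusted p = 0.0944) and without Osr1cKO replicate 1 (-0.36, unadjusted p = 0.136). Tnc was 0.48 without Osr1cKO replicate 1 and 1.0045 without replicate 2. The lone library left in a group in these fits is assumed to vary like the other group.

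Thbs4 was at 2153 and 2295 TPM in the controls and at 2587 and 2868 TPM in Osr1cKO libraries, a log2 difference of 0.16 ± 0.13 (SE; unadjusted p = 0.275) that did not pass. Thbs2 differed by 0.24 ± 0.12 (SE; unadjusted p = 0.0854), with 991 and 863 TPM in the controls and 1164 and 1236 TPM in Osr1cKO libraries. Postn was at 5794 and 4701 TPM against 5340 and 5431 TPM, and Comp at 96.9 and 135 TPM against 102 and 155 TPM. Neither gene separated the genotypes at this day, and Thbs1 (-0.19 ± 0.13) and Thbs3 (-0.05 ± 0.13, both log2 with SE) did not pass either.

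From 3 to 7 dpi, 6 of the 9 members rose in control FAPs (fold change over 1.2 and adjusted p under 0.05), beside 45.4% of the 17371 genes tested, with 21.3% of the tested genes called as higher. These 6 and Tnc, which was lower, had days that did not overlap, against 74.3% of all genes. The rises of Thbs4 and Tnn lay within 1 SE of that of Postn, and their order changed as libraries were left out. Postn went from a mean of 1383 ± 473 to 5247 ± 773 TPM (SD, n = 2 each), or 2.04 ± 0.37 on the log2 scale (SE; adjusted p = 0.00459, limma). Thbs4 rose by 1.90 ± 0.23 (adjusted p = 9.5e-04), Tnn by 1.84 ± 0.37 (adjusted p = 0.00651) and Thbs3 by 1.40 ± 0.13 (adjusted p = 3.8e-04, SE throughout). Tnxb and Comp rose by 1.14 ± 0.25 (adjusted p = 0.00877) and 1.01 ± 0.21 (adjusted p = 0.00737). Tnn was 1.23 without control replicate 1 of 7 dpi and 2.45 without replicate 2. Without control replicate 2 of 7 dpi, Tnxb and Comp missed the threshold, with adjusted p of 0.0599 and 0.0503.

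Tnc was the member that was lower at 7 than at 3 dpi in both genotypes without overlap. Its log2 differences of -1.08 ± 0.50 in control (adjusted p = 0.119) and -1.26 ± 0.50 in Osr1cKO (adjusted p = 0.0840, limma) missed the threshold, and without Osr1cKO replicate 2 of 3 dpi the second became -1.85 (adjusted p = 0.0452). Among tenascin transcripts, the share of Tnc went from 85.2% and 93.5% to 69.3% and 55.9% in control and from 95.7% and 90.6% to 78.0% and 70.3% in Osr1cKO FAPs. The share of Tnxb ran from 2.75% to 12.7% at 3 dpi and from 9.45% to 36.0% at 7 dpi, where both controls exceeded both Osr1cKO libraries.

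In Osr1cKO FAPs, 4 members rose from 3 to 7 dpi, beside 40.2% of all genes called and 18.2% called as higher. Comp rose by 1.55 ± 0.21 (adjusted p = 0.00187), Tnn by 1.70 ± 0.37 (adjusted p = 0.0105), Thbs3 by 0.97 ± 0.13 (adjusted p = 0.00165) and Postn by 1.17 ± 0.37 (adjusted p = 0.0422, limma, SE throughout). The Tnn call was lost without Osr1cKO replicate 2 of 3 dpi (adjusted p = 0.0517) and without Osr1cKO replicate 1 of 7 dpi (adjusted p = 0.0590). The Postn call was lost in 5 of the fits that left out 1 library, with an adjusted p of up to 0.213 without Osr1cKO replicate 2 of 3 dpi. Thbs4 and Tnxb differed by 0.66 ± 0.23 (adjusted p = 0.0571) and 0.60 ± 0.25 (adjusted p = 0.0883) and did not pass. Both passed without either control library of 3 dpi, which raised the count to 6, and without Osr1cKO replicate 1 of 7 dpi it was 2. Days did not overlap for 8 members, against 76.1% of all genes.

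**Figure D4:**
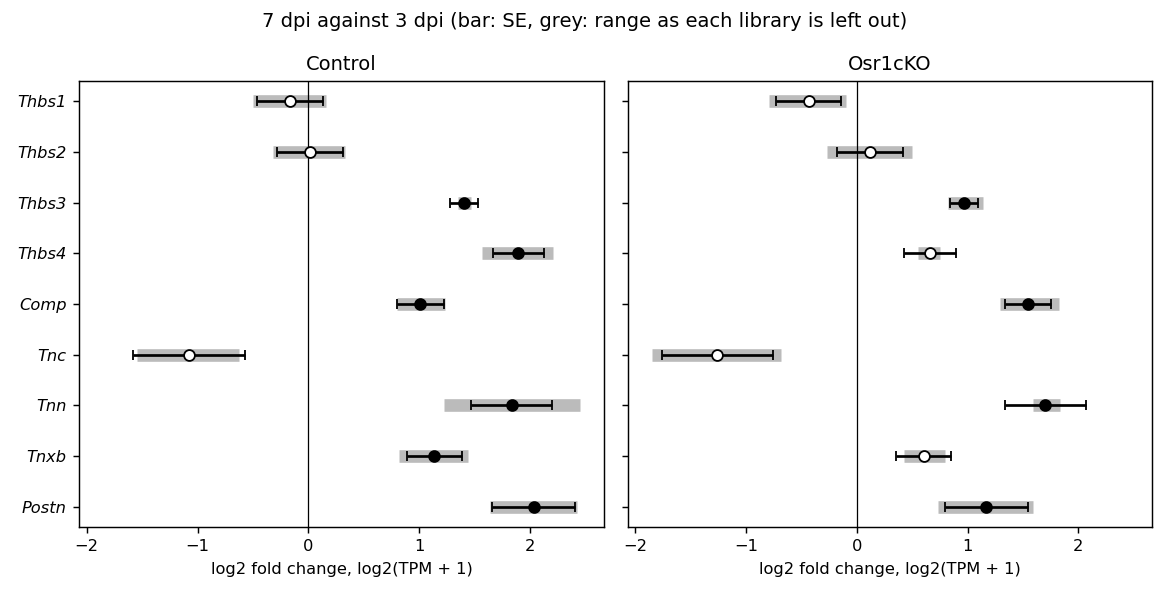
Log2 fold change of 7 against 3 dpi in control (left) and Osr1cKO FAPs (right) for the 9 genes, with standard errors as bars and the range as each library is left out in grey. Filled circles mark calls, 6 in control and 4 in Osr1cKO, all toward higher values at 7 dpi, while Tnc lies on the negative side in both panels.

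Deposited TPM of Thbs4 and Tnn increased in the order control then Osr1cKO at 3 dpi, then control then Osr1cKO at 7 dpi. Neighbouring groups did not overlap. For both genes the step between genotypes at 7 dpi did not pass its test. The share of all genes with this order was not counted. Deposited TPM at 7 dpi were shifted toward Osr1cKO, where 42.8% of all genes were higher without overlap, against 23.0% after scaling. For Postn the days separated in both genotypes, and genotypes within a day overlapped. The genotype difference of no member was shown to change with day: the interaction passed an adjusted p under 0.05 for 0 members and 0% of all genes, and at an unadjusted p under 0.05 for 2 members, both negative, beside 6.78% of all genes in either direction and 3.15% negative (limma). Those were Thbs4, whose genotype difference at 7 dpi minus that at 3 dpi was -1.24 ± 0.33 (SE; unadjusted p = 0.00669, adjusted p = 0.596), and Thbs3, at -0.43 ± 0.18 (SE; unadjusted p = 0.0448, adjusted p = 0.728). The comparisons by genotype and by day use the same libraries, so their values are not independent.

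Tendon markers stood higher in Osr1cKO FAPs and at 7 dpi, as Thbs4 and Tnn did, whereas Comp was lower in Osr1cKO FAPs at 3 dpi. The summed markers Scx, Tnmd, Mkx and Kera were at 5.32 and 9.39 TPM in the controls and 17.6 and 11.6 TPM in Osr1cKO libraries at 3 dpi, and at 108 and 191 TPM against 326 and 459 TPM at 7 dpi. No marker was at 0 in all libraries. Of a wider list of 8 tendon genes 7 were tested at 3 dpi, and Col11a1 and Kera were called as higher, beside 2.38% of all genes. Col11a1 went from 1.51 and 1.77 TPM in control to 3.09 and 2.97 TPM in Osr1cKO libraries. At 7 dpi none was called. By unadjusted p, 5 were higher, among them Fmod, a collagen-binding proteoglycan (0.59 ± 0.09, log2 with SE), and 1 was lower, Cilp (-0.58 ± 0.13), beside 11.1% of all genes in either direction. From 3 to 7 dpi 7 of 8 rose in each genotype, beside 21.3% of all genes in control and 18.2% in Osr1cKO FAPs, and Tnmd, a marker of mature tenocytes, rose by 4.65 ± 0.32 in control. The part of these cells in the values of Thbs4, Comp, Tnc and Tnn was not tested. Endothelial markers summed to between 17.2 and 44.3 TPM at 3 dpi, and at 7 dpi the sum was between 46 and 70.5 TPM, and pericyte and smooth muscle markers to between 29.5 and 61.8 TPM and between 54.0 and 115 TPM. Other lists also stood higher at 7 dpi, without overlap of the days. Myofiber markers summed to 5.34 to 10.8 TPM at 3 dpi and 32.6 to 52.8 TPM at 7 dpi, and muscle stem cell markers to 5.52 to 7.76 TPM and 11.7 to 27.7 TPM. Erythroid markers summed to 1.35 TPM or less at 3 dpi and to 10.2 to 45.4 TPM at 7 dpi, and macrophage markers to 10.7 to 19.3 TPM and 37.9 to 57.9 TPM. The part of these cells in the day differences was not tested.

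Of 20 genes for receptors of these proteins 1 was called at 3 dpi, near the 6.26% of all genes. It was Cd47, the thrombospondin receptor that also signals to phagocytes. Cd47 went from 201 and 182 TPM in control to 137 and 133 TPM in Osr1cKO libraries and fell by 0.50 on the log2 scale (SE 0.12; unadjusted p = 0.00982, adjusted p = 0.772, limma). Cd36, another thrombospondin receptor, was at 3.57 TPM or less in every library. At 7 dpi 0 receptors were called (0.0664% of all genes were). By unadjusted p 2 were higher, Cd36 (0.58 ± 0.20) and Sdc1 (0.56 ± 0.22), and 1 was lower, Egfr (-0.29 ± 0.08, log2 with SE), beside 11.1% of all genes. Between the days in control, 6 receptors rose and 6 fell, beside 45.4% of all genes called and 21.3% that rose. Itga8, an integrin subunit that can bind tenascins, rose by 1.90 ± 0.19, and Itga5, a subunit of the fibronectin receptor, fell by 1.11 on the log2 scale (SE 0.19).

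The TGF-beta list held ligands, receptors and latency proteins, and 3 of its 10 genes were called at 3 dpi, all higher in Osr1cKO FAPs, beside 2.38% of all genes called as higher. Tgfb3 was at 68.0 and 72.9 TPM in the controls and at 176 and 94.2 TPM in Osr1cKO libraries (0.86 ± 0.32; unadjusted p = 0.0424). Tgfb2 was at 61.4 and 49.3 TPM against 86.3 and 73.9 TPM (0.53 ± 0.17; unadjusted p = 0.0258), and Ltbp3 at 70.7 and 72.7 TPM against 97.4 and 92.8 TPM (0.40 ± 0.12; unadjusted p = 0.0196). No library of these genes overlapped between genotypes, against 36.2% of all genes, and none passed an adjusted p under 0.1. These 3 were picked by their p in the same libraries. At 7 dpi 0 were called (0.0664% of all genes were). By unadjusted p 0 of the 10 were higher and 1 was lower, beside 11.1% of all genes in either direction and 5.91% lower. It was Tgfb3, at -0.32 ± 0.08 (unadjusted p = 0.0106, adjusted p = 0.302, limma). From 3 to 7 dpi in control, 4 of the 10 rose and 2 fell, beside 45.4% of all genes called and 21.3% that rose. Among those that rose were Tgfb3 (1.99 ± 0.26) and Ltbp4 (1.60 ± 0.32), and Ltbp2 fell (by 1.60 on the log2 scale, SE 0.29).

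Of 16 matrix partners 1 was called at 3 dpi, a share close to the 6.26% of all genes. It was Col12a1, a fibril-associated collagen that binds tenascin-X. It was at 268 and 256 TPM in the controls and at 464 and 373 TPM in Osr1cKO libraries, higher by 0.66 ± 0.17 (SE; unadjusted p = 0.0109, adjusted p = 0.772, limma). The other 15 had no call. Of the 16, 15 lay above 0, beside 51.3% of all genes, and the median was 0.34 beside 0.0070 over all genes. At 7 dpi 0 were called (0.0664% of all genes were), and 6 of 16 lay above 0, beside 50.8% of all genes. By unadjusted p 1 was higher and 2 were lower, beside 11.1% of all genes in either direction and 5.91% lower. The higher one was Col12a1, at 437 and 301 TPM against 723 and 576 TPM (0.70 ± 0.22; unadjusted p = 0.0211, adjusted p = 0.333, limma). Ccdc80 (-0.29 ± 0.10) and Col14a1 (-0.34 ± 0.13, log2 with SE) were the lower ones. In control, 7 partners were called from 3 to 7 dpi, beside 45.4% of all genes. Of these 6 rose and 1, Lox, the collagen cross-linking enzyme that periostin helps to activate, fell by 1.42 on the log2 scale (SE 0.23).

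Among 12 other matricellular genes 1 was called at 3 dpi, beside 6.26% of all genes. It was Ccn3, which was lower in Osr1cKO FAPs, at 30.9 and 37.5 TPM against 24.3 and 21.5 TPM (-0.56 ± 0.17; unadjusted p = 0.0218). At 7 dpi 0 were called, and by unadjusted p 2 of the 11 tested were higher and 2 lower. Beside these stood 11.1% of all genes in either direction and 5.91% lower. The median was -0.12, and 3 of the 11 lay above 0. Spp1 (osteopontin) was at 231 and 131 TPM in the controls and at 793 and 492 TPM in Osr1cKO libraries (1.71 ± 0.35; unadjusted p = 0.00333, adjusted p = 0.247), and Tgfbi, the paralog of Postn, was higher by 0.56 ± 0.15 (unadjusted p = 0.0110, adjusted p = 0.304, limma). Smoc2, a SPARC-related protein, was lower at 469 and 525 TPM against 392 and 428 TPM (-0.41 ± 0.09; unadjusted p = 0.00494, adjusted p = 0.266, limma). Of 9 proteases that cleave these proteins, 1 was called at 3 dpi, beside 6.26% of all genes. It was Adamts4, higher at 161 and 157 TPM against 129 and 117 TPM (0.37 ± 0.12; unadjusted p = 0.0281). At 7 dpi 0 of the 9 were called (0.0664% of all genes were), and 1 lay above 0, beside 50.8% of all genes. By unadjusted p 1 was higher and 4 were lower, beside 11.1% of all genes in either direction and 5.91% lower. Among the lower were Adamts12 (-0.27 ± 0.07), Mmp3 (-0.40 ± 0.11) and Adamts4. Adamts4 differed by -0.60 ± 0.07, at 257 and 276 TPM in the controls and 185 and 198 TPM in Osr1cKO libraries (unadjusted p = 2.8e-04, adjusted p = 0.149, limma), which missed the threshold. From 3 to 7 dpi in control, 6 of the 9 rose and 0 fell, beside 45.4% of all genes called and 21.3% that rose. Among them, Mmp2 and Mmp14, matrix metalloproteinases, rose by 1.46 ± 0.22 and 1.29 ± 0.18.

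Genes with the most similar pattern over the 8 libraries were sought among 10385 genes, by Pearson correlation of scaled log2(TPM + 1). The 8 libraries share the day contrast, so these values mostly describe how genes differ by day. Postn was closest to Col6a1 (r = 0.995), Col6a2 and Col16a1, genes of collagen chains. Thbs3 was closest to Ckb (0.995), Comp to Rap1b (0.993), Thbs4 to Gm36377 (0.989), Tnxb to Boc (0.986), Tnc to Med22 (0.982) and Tnn to Slc7a2 (0.971). Among the members, Thbs4 and Postn had r = 0.923, Thbs4 and Thbs3 0.878, Tnn and Thbs4 0.886, and Tnc and Tnxb -0.873.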

How the data were processed

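RNA-seq was measured in 8 libraries of sorted FAPs, 2 for each genotype and day, grouped by the genotype and days post injury in the labels. The authors aligned reads to mm10 with STAR, normalized with DESeq2 and deposited TPM per gene symbol, which summed to 1000000 in each library. The counter, annotation and counting strand are not given in the sources used here. The labels name one instrument and read length for all libraries and the methods name a pair of each, so that sequencing by day is not settled.

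Of 55385 entries, 109 further entries of 106 repeated symbols were left out, giving 55276. GENCODE release 21 (GRCm38) exon lengths matched 53281 symbols. With them, between 98.7% and 99.0% of values under 50 fragments came within 0.02 of a whole number. The values of Tnxb did not, and the reason was not tested. Libraries were brought to one scale with a trimmed mean of log ratios (30% off each side), and values tested as log2(TPM + 1) with limma 3.58.1 (R 4.3.3, lmFit, eBayes with trend), with Benjamini-Hochberg adjustment over all genes tested. Genes needed 10 fragments in 2 libraries and 15 in all, or a mean TPM of 1 without a length. Genotypes were fitted within each day, and days and the interaction over all 8 libraries. limma's p-values rest on 2 libraries per group. Python 3.11.15, pandas 2.3.3, NumPy 2.4.6 and matplotlib 3.10.9 did the rest. The fit was tested on simulated data. Alternatives in scaling, filter, pseudocount, model, threshold and libraries are given in the closing section.

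The members, lists and motifs were chosen with earlier results of these data known. Named were all members, Osr1, and, from each list, up to 3 called genes of smallest p by genotype (unadjusted at 7 dpi) and the 3 called genes of largest change by day in control, of which a part is described, and up to 3 genes of highest correlation per member.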

Additional observations from a re-analysis of the deposited data

How the results depend on the processing

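Of 666 recomputed single-gene values, 600 kept their direction and side of the threshold, 33 turned, 18 fell below the threshold and 15 passed it. At 3 dpi 4 members were called, 0 at an adjusted p under 0.1, and between 2 and 4 without 1 library. At 7 dpi 0 became 1 at an unadjusted p and between 0 and 3 as libraries were left out. In control FAPs by day the count was 6, and between 4 and 6 with a library left out. In Osr1cKO FAPs by day it was 4, 7 at an adjusted p under 0.1, and between 2 and 6. Thbs4 by day in Osr1cKO FAPs passed on deposited TPM (adjusted p = 0.0304), with a mean TPM filter (0.0277), limma-voom (0.0342) and robust eBayes (0.0391), and Postn there lost its call without a filter (0.123). For the interaction 0 became 2 at an unadjusted p. The cause was not tested.

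Values that turned were all uncalled. On deposited TPM these were Thbs3 (0.080) and Postn (0.045) at 7 dpi, Thbs2 by day in control (-0.064, and -0.014 without a filter) and Tnn in the interaction (0.0099). Comp at 7 dpi was -2.5e-05 with a mean TPM filter, and Tnxb at 3 dpi was 0.0049 with all 8 libraries in 1 fit. As libraries were left out, ranges crossed 0 at 3 dpi for Thbs1 (-0.29 to 0.43), Thbs2 (-0.27 to 0.51) and Tnxb (-0.37 to 0.31), at 7 dpi for Thbs3 (-0.21 to 0.11), Comp (-0.26 to 0.27) and Postn (-0.25 to 0.070), by day in control for Thbs1 (-0.50 to 0.16) and Thbs2 (-0.31 to 0.33), by day in Osr1cKO for Thbs2 (-0.27 to 0.49), and in the interaction for Thbs1 (-0.62 to 0.068), Thbs2 (-0.28 to 0.48), Tnc (-0.77 to 0.40) and Tnn (-0.74 to 0.48).

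Replicate numbers did not pair the libraries (correlation of replicate differences between genotypes -0.0936 at 3 dpi and 0.0671 at 7 dpi). With the replicate number as a block, 3 members were called at 3 dpi, 0 at 7 dpi, 5 by day in control, 3 by day in Osr1cKO and 0 in the interaction, and over all genes 911, 27, 4135, 2815 and 0, against 983, 11, 7891, 6977 and 0 without it. The block was coded so that the day differences were taken at replicate 1. The counts by day thus reflect a changed contrast as well as the block. Over all genes, the 983 at 3 dpi became 1803 with all 8 libraries in 1 fit, 0 at an adjusted p under 0.1, and between 410 and 2801 as libraries were left out. The 11 at 7 dpi became 188 with limma-voom on recovered fragments, 1843 at an unadjusted p, 0 on deposited TPM, with a mean TPM filter, without a filter or with all 8 libraries, and between 5 and 313 as libraries were left out. By day, leaving libraries out gave between 4690 and 8143 genes in control and between 3781 and 8214 in Osr1cKO FAPs. The interaction reached 30 genes without a filter, 3 with a pseudocount of 0.1, 1 with a mean TPM filter, 1177 at an unadjusted p, and up to 69 without control replicate 1 of 3 dpi. With 2 libraries per group, single mice at 3 dpi, small differences were not detectable.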
